A study of Mus musculus with 46 samples.

Results

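Proliferating microglia from demyelinated adult brain and from newborn brain differed in H3K27ac at 6296 of the 20533 regions (30.7%) that all 4 libraries called. In adult mice fed cuprizone, a copper chelator that kills oligodendrocytes and removes myelin, the mark was higher around genes of the disease-associated microglia programme, interferon-stimulated genes and genes of lipid efflux. In cells of postnatal day 8 (PND8) it was higher at cell cycle promoters, at the promoters of Mrc1 and Igf2bp3 and at several genes of sterol synthesis; the cell cycle and sterol counts depend on how the libraries are scaled. The comparison used 4 of the 46 samples of the series, chosen by their labels: both H3K27ac libraries of Ki67-positive cells after 4 weeks of cuprizone, at 90 days of age, and both of PND8, at 8 days of age and with no treatment. All mice were wild-type C57BL/6 males, and all cells were fixed, stained for Ki67, a nuclear protein of cycling cells, and sorted on CD11b, CD45 and CD44 as microglia. Age and diet differ together between the groups and cannot be told apart. The 4 libraries were set beside 8 others of the same mark: Ki67-negative cells of the same settings, untreated adult microglia of 60 and 65 days, labelled Ki67-negative, and Ki67-positive cells at 90 days that were repopulating the brain 3 days after 17 days of PLX5622, an inhibitor of CSF1R that depletes microglia. No label says whether the 2 libraries of a group came from separate animals, so the tests measure the spread between libraries.

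Microglia are the macrophages of the brain parenchyma and live under CSF1 and TGF-beta signals. Around damaged myelin they take up lipid debris and turn on the genes of disease-associated microglia, also seen near amyloid plaques, among them Apoe, Itgax, Axl, Lpl and Spp1. Related genes are active for a time in the early postnatal white matter. H3K27ac, acetylation of lysine 27 of histone H3, marks active promoters and enhancers. In sorted cells pooled for one library, a smaller share of cells that carry the mark and less mark per cell cannot be told apart.

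The following promoters carried the differences described below, and the windows are printed because short motifs of known factors lie in them. They run from 250 bases before to 50 bases after the start of the RefSeq gene, 5′ to 3′ on the gene's strand, in build GRCm38.p6. In the promoter of Itgax (chr7:128129300-128129599, plus strand), the gene of the integrin CD11c, capitals mark an AP-1 site, TGANTCA. In the promoter of Ch25h (chr19:34475099-34475398, minus strand), which makes 25-hydroxycholesterol, they mark a cyclic AMP response element, TGACGTCA.
Itgax: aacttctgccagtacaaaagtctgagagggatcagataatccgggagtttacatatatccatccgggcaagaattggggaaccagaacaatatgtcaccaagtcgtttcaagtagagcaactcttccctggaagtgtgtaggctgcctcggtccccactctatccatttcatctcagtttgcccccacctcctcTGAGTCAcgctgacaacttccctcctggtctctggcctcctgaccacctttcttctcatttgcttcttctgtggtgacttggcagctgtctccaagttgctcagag
Ch25h: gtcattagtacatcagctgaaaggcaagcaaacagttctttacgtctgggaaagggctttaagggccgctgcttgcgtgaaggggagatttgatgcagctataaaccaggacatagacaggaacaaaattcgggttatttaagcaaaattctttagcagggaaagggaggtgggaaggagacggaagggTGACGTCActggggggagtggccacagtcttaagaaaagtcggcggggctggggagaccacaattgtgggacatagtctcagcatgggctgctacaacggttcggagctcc
In the interferon-stimulated genes Isg15 (chr4:156200769-156201068, minus strand), a ubiquitin-like modifier, and Ifi207 (chr1:173741760-173742059, minus strand), they mark the core of the interferon-stimulated response element, GAAA, any 2 bases and GAAA again, of which 3 matches overlap in Isg15.
Isg15: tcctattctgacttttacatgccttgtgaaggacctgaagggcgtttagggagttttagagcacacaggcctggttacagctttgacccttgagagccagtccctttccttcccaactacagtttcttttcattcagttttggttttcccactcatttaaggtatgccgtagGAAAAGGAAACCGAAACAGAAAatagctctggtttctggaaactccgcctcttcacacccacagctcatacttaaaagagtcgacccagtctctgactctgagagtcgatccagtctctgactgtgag
Ifi207: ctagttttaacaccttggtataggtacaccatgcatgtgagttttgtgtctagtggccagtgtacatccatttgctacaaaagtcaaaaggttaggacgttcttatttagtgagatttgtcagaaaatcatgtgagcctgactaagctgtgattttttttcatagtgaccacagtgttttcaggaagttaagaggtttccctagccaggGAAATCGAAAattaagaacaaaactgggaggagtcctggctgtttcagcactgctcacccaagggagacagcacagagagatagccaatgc
In Ccnb2 (chr9:70421505-70421804, minus strand), cyclin B2, and Ube2c (chr2:164769679-164769978, plus strand), a ubiquitin-conjugating enzyme of mitotic exit, they mark CCAAT boxes and the cell cycle homology region, TTTGAA. Matches were searched on both strands, and in Ube2c a CCAAT on one strand overlaps a CCAAT on the other.
Ccnb2: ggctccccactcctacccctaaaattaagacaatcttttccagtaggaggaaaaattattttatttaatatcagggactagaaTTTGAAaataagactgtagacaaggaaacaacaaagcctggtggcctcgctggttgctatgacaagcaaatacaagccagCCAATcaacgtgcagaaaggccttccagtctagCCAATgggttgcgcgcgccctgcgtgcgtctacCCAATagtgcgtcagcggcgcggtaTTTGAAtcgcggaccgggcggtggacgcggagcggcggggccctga
Ube2c: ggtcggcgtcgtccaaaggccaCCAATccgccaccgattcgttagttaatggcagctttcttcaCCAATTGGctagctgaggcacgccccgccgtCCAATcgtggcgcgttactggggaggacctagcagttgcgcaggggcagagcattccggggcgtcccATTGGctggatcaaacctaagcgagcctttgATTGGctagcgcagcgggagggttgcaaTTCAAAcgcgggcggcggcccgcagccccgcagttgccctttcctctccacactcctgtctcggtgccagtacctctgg

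A window was found for 7675 of the 9889 genes with a promoter region. The interferon-stimulated response element core occurred in 6.60% of the 303 windows whose region was higher in cuprizone, in 2.43% of the 1152 whose region was lower, in 3.14% of the 5226 not called and in 3.44% of all 32851 RefSeq windows. It was present in 6 of 12 windows of the interferon list. TGANTCA occurred in 10.6% of the windows with higher regions, in 2.95% of those with lower regions, in 4.36% of those not called and in 7.81% of all windows. CCAAT was present in 16 of 18 windows of the G2/M list against 37.4% of all windows, and TTTGAA in 14 of 18 against 17.9%. An E2F site, TTTGGCGC, was found in 6 of 20 windows of the S phase list and in 0.514% of all windows. TGACGTCA was in 1.32% of windows with higher regions and 4.51% of those with lower regions, against 3.88% of those not called and 1.79% of all. These are matches of letters and say nothing of binding.

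The 4 libraries held between 15233543 and 20407110 tags, of which 45.6% to 65.3% lay in called regions, with the highest share in cuprizone replicate 2. Each list held 25108 to 30321 regions. Tags in a region are given as the deposited normalised tag count, per 10000000 tags of the library. Merging regions that share at least 1 bp gave a union of 35589 regions, of which 20533 were called in all 4 libraries. Over these, log2 tags correlated between replicates at r = 0.952 in cuprizone and 0.965 in PND8, and across the groups at 0.797 to 0.832. Among cell type markers, all 25 promoters of a homeostatic microglia list were called in at least 1 of the 4 libraries. One of them, Upk1b, was called only in cuprizone replicate 2, at 29.5 tags. None of 8 neuronal, 11 monocyte or neutrophil and 9 lymphocyte promoters was called. Whether the sorted cells held other cell types was not tested. Promoters of other cells were called for 1 of 8 astrocyte, 4 of 10 oligodendrocyte, 4 of 8 endothelial, 5 of 9 border macrophage and 2 of 6 erythroid markers.

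The gate itself was visible at Mki67, which encodes Ki67. Its promoter held 142.4 and 260.0 normalised tags in the cuprizone Ki67-positive libraries. In Ki67-negative cells of the same setting it was not called in one library and held 67.6 tags in the other. In PND8 it held 309.7 and 332.2 tags when Ki67-positive, and the Ki67-negative libraries held 117.3 and 131.5. Both adult libraries lacked a call there. In each setting the Ki67-positive libraries stood above the Ki67-negative ones.

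Each region was tested with limma on log2(tags + 1), after every library was centred on its median over the regions called in all 4, with Benjamini-Hochberg adjustment and a threshold of 0.05. A call of higher was made for 3421 regions, 16.7% of those tested, and of lower for 2875, 14.0%. On tags before centring, the groups did not overlap at 3402 of the higher and 2477 of the lower regions. Of all 20533 tested regions, called or not, cuprizone lay above PND8 without overlap at 6967 and below it at 3900. For a single region, a lack of overlap was thus common. Here and below it is not separate evidence for a difference. At a fold of at least 2, 2099 were higher (10.2%) and 1222 lower (5.95%). Before centring, the medians of the deposited values lay 0.17 higher on the log2 scale in cuprizone, and without centring 2893 regions were higher and 576 lower. The balance of higher against lower calls thus depends on the scaling, and differences below are relative to the median region. Leaving out PND8 replicate 1 left 2530 higher and 1268 lower regions.

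**Figure D1:**
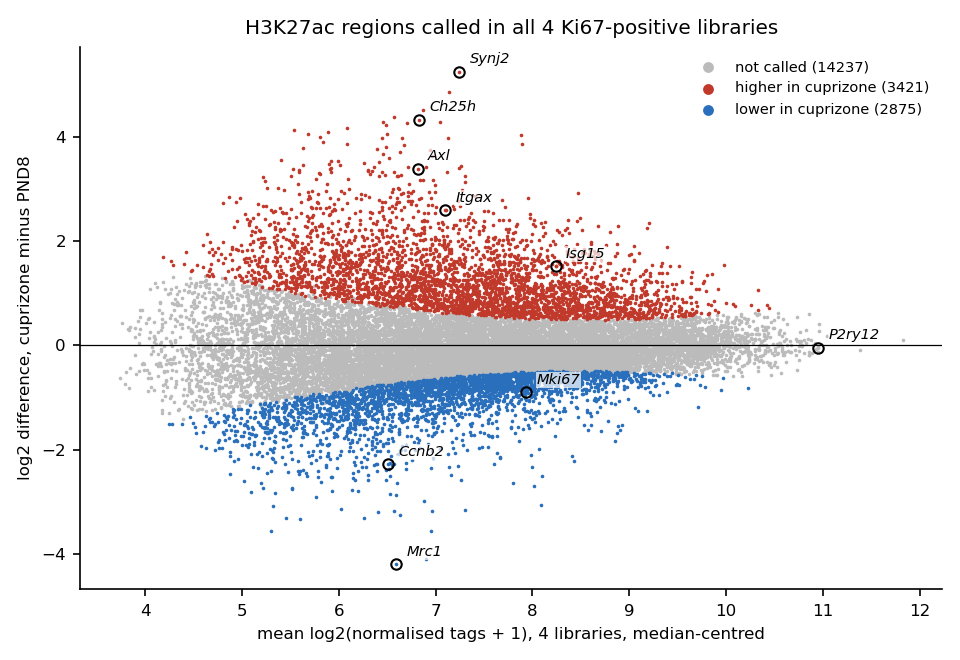
Each point is 1 of the 20533 H3K27ac regions called in all 4 Ki67-positive libraries: the x axis gives the mean log2(normalised tags + 1) after centring and the y axis the log2 difference, cuprizone minus PND8. Red marks the 3421 regions called higher, blue the 2875 called lower, and circles mark 9 named promoters, from Synj2 at 5.25 to Mrc1 at -4.20.

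The largest difference stood at the promoter of Synj2 (chr17:5975271-5979801 in mm10), which encodes the phosphoinositide phosphatase synaptojanin 2. It held 889.5 and 1138.5 normalised tags in cuprizone and 24.0 and 21.3 in PND8. These tags lay in called lengths of 4465 and 4531 bp in cuprizone and 815 and 633 bp in PND8. Tags outside the called length are not counted, here and at the regions below. The groups did not overlap: the log2 difference was 5.25 ± 0.24 (SE, n = 2 and 2 libraries), with a 95% interval of 4.76 to 5.73 and a limma adjusted p of 1.2e-15. In Ki67-negative cells it held 675.6 and 919.4 tags after cuprizone, and was not called or held 43.6 tags in PND8. The adult libraries held 55.9 and 169.6 tags and the repopulating ones 723.5 and 789.8, so the promoter was strong in cuprizone and repopulating cells and weak in PND8 and adult cells. RNA levels came from separate samples of the series: adults of 90 days, and Ki67-rfp mice of 8 days and, repopulating, of 75 days, so the adult and repopulating ages differ from those of the H3K27ac libraries. They were 0.6 and 0.8 TPM in PND8 Ki67-positive cells, 9.1 and 7.1 in adults and 15.7 and 15.9 in repopulating Ki67-positive cells. RNA of cuprizone cells was not analysed here.

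Of the other regions with the largest higher differences, 1 more stood at the promoter of a well-known lipid gene, Ch25h. It held 416.2 and 723.0 tags in cuprizone and 21.1 and 25.8 in PND8, a log2 difference of 4.33 ± 0.26. Both adult libraries lacked a call and both repopulating libraries had one, at 442.2 and 571.0 tags. Mlph, which encodes the organelle transport adaptor melanophilin, had 292.8 and 326.4 tags at its promoter in cuprizone against 14.2 and 14.7 in PND8 (log2 difference 4.16). Unlike Synj2 and Ch25h it was strong in adults, at 156.4 and 423.3 tags, and weak in repopulating cells, with 34.0 tags in one library and no call in the other. The remaining 9 of the 12 lay away from promoters: near Klhl25 (4.85), Gpr3 (4.50), Kcnj2 (4.37), Ank (4.28), Apobec1 (4.28), Xylt1 (4.27), Fkbp5 (4.23), Gxylt1 (4.12) and Ist1 (4.08). The nearest start is a position and not a tested target, and the Kcnj2 region lies 375 kb from its start.

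On the PND8 side, the largest difference stood at the promoter of Mrc1 (chr2:14227980-14230817), which encodes the mannose receptor CD206. It held 13.8 and 39.0 tags in cuprizone and 351.8 and 447.1 in PND8, a log2 difference of -4.20 ± 0.31 (adjusted p = 2.6e-11, limma). The called length was 501 and 1309 bp in cuprizone and 2368 and 2717 bp in PND8. PND8 Ki67-negative cells had it at 289 and 326.1 tags, against 53.5 and 62.6 after cuprizone. RNA was at 237.5 and 230.2 TPM in PND8 Ki67-positive cells against 14.2 and 15.0 in adults. The second was a region 7.36 kb from the start of Il16, a cytokine gene, with 17.7 and 51.7 tags in cuprizone and 454.7 and 492.7 in PND8 (log2 difference -4.09). The promoters of Kifc3, a kinesin gene, and Fgf11, of the fibroblast growth factor family, had log2 differences of -3.19 and -3.15. The other regions of the 12 lay near Poc1a (-3.56, not called with uncalled regions set to 0 tags, adjusted p = 0.0602, limma), Pde4d (-3.55), Tas2r134 (-3.32), Pex5 (-3.31), Rplp1 (-3.31), Camk2n1 (-3.26), Wdr18 (-3.17) and Cd164 (-3.17).

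**Figure D2:**
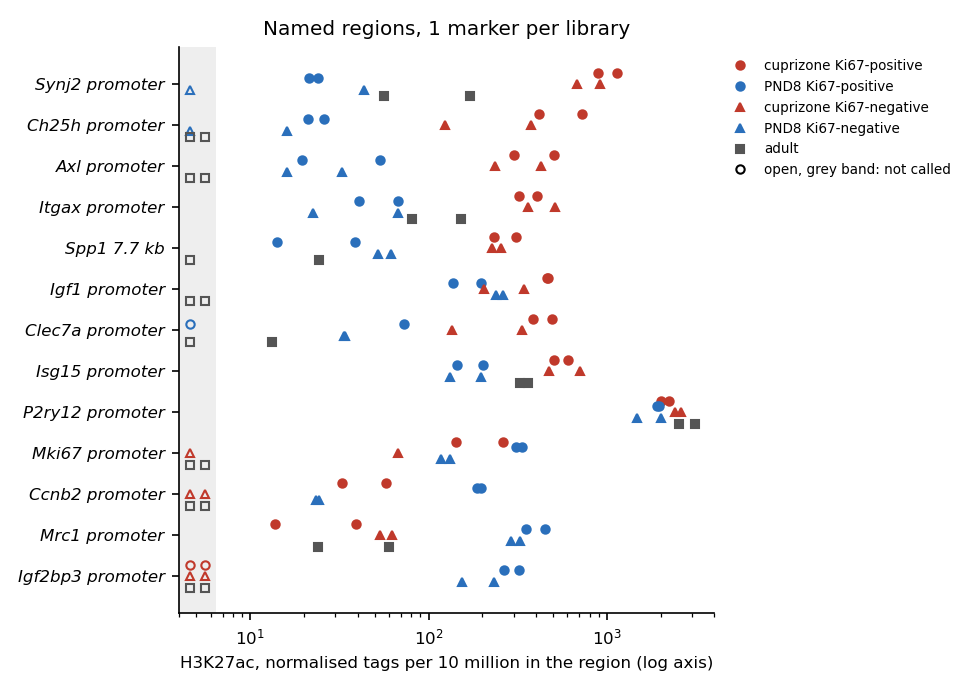
Normalised H3K27ac tags per 10000000 at 13 named regions on a log axis, with 1 marker per library: red for cuprizone, blue for PND8, grey for adult, circles for Ki67-positive and triangles for Ki67-negative cells. Open markers in the grey band stand for libraries in which the region was not called; the Synj2 promoter lies at 889.5 and 1138.5 tags in cuprizone Ki67-positive and 24.0 and 21.3 in PND8 Ki67-positive cells.

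Promoters and distal regions moved apart. Of the 8490 promoter regions, those within 1000 bp of a transcription start, 411 were higher (4.84%) and 1484 lower (17.5%), with a median log2 difference of -0.29. Of the 12042 distal regions, 3010 were higher (25%) and 1391 lower (11.6%), with a median of 0.14. Without centring 416 distal regions were lower, and 801 and 900 without PND8 replicates 1 and 2. The balance at promoters turned with the scaling: without centring, 400 were higher and 160 lower, and the median stayed below 0, at -0.12. Leaving out cuprizone replicate 1 left 845 lower promoters and leaving out PND8 replicate 1 left 467. A measure that a scaling factor per library does not move is the median of distal minus the median of promoter log2 tags within a library. It was -0.22 and -0.47 in the cuprizone libraries and -0.98 and -0.74 in PND8, and the groups did not overlap. Their means differed by 0.51, with an exact two-sided permutation p of 0.333, the smallest that 2 against 2 libraries allow. In Ki67-negative cells it was 0.00 and -0.38 after cuprizone and -0.79 and -0.57 in PND8. The adult libraries stood at -0.38 and -0.05. Outside the 4 libraries, only the tested regions that a library called itself entered its medians. In the adult libraries these were 88.4% and 95.6% of the promoters but 75.1% and 90.2% of the distal regions. The values of the other libraries are thus over unlike sets of regions, and they do not place adults on either side.

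**Figure D3:**
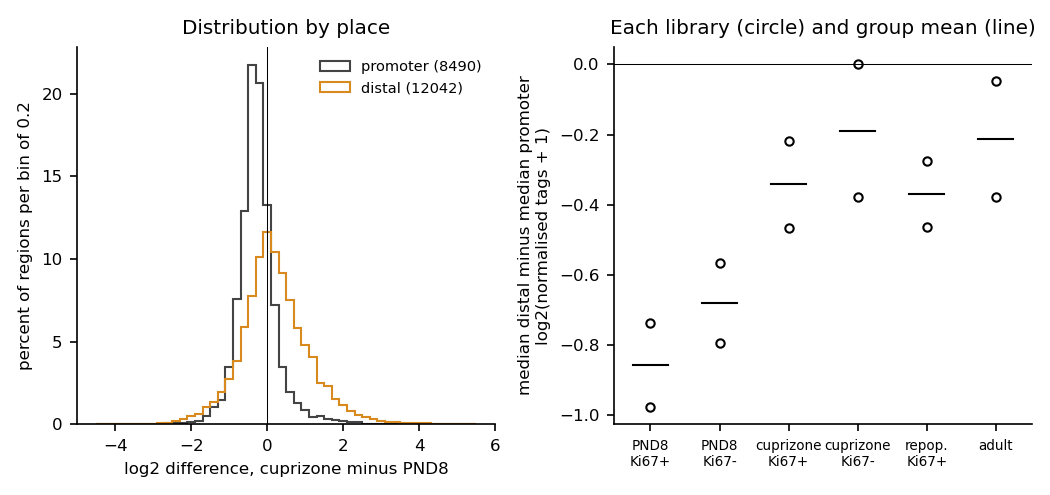
Left, the share of promoter (8490) and distal (12042) regions in bins of the log2 difference, cuprizone minus PND8; the promoter curve peaks below 0 and the distal curve has the longer upper tail. Right, the median of distal minus promoter log2(normalised tags + 1) in each of 12 libraries (circles) with group means (lines). Each library's medians are over the tested regions that it called, so the sets of regions differ between libraries outside the 4 compared. The 4 PND8 libraries lie between -0.98 and -0.57 and the 4 cuprizone libraries between -0.47 and 0.00.

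Disease-associated microglia genes were higher as a group. Of 74 tested regions assigned to 26 of the 28 genes in the list, 49 were higher and 0 lower, against 16.7% and 14.0% of all regions, and the median log2 difference was 1.10, against -0.10 for all tested regions. Higher regions lay at 18 of the 26 genes. The median was 0.72 on tags per called kb. Among promoters, 11 of 23 were higher, against 4.84% of all promoters. Of the list's 152 regions in the union, 20 were called in both cuprizone libraries and neither PND8 library, and 3 the reverse. Over the whole union these shares were 4.36% and 4.30%. The count of higher regions was between 43 and 50 when any 1 library was left out.

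Within the list, the receptor tyrosine kinase Axl, which binds GAS6 on dying cells, held 302.6 and 506.8 promoter tags in cuprizone and 19.6 and 53.2 in PND8. The log2 difference was 3.38 ± 0.30, and the adult libraries had no call. The Axl region that was stronger by the mean of the 4 libraries, 10.7 kb from the start, was weaker than the promoter in cuprizone and stronger in PND8. It held 182.5 and 274.2 tags against 198.0 and 266.3, so its groups overlapped (log2 difference -0.21, adjusted p = 0.455, limma). Itgax held 322.3 and 407.1 promoter tags against 40.7 and 67.8, a log2 difference of 2.59 ± 0.24. Repopulating Ki67-positive cells, which had no cuprizone, held 309.4 and 446.0 tags at this promoter, and the adult libraries 80.8 and 151.4. Its strength was thus not particular to cuprizone. Spp1, osteopontin, had its strongest region 7.67 kb from the start, with 231.7 and 310.1 tags against 14.2 and 38.5 (3.29 ± 0.33). The repopulating Ki67-positive libraries held 128.5 and 250.4 tags there. The Spp1 promoter itself held 24.3 and 29.0 tags in cuprizone and was not called in PND8. RNA of Spp1 was 219.5 and 230.5 TPM in PND8 Ki67-positive cells, 6.8 and 6.4 in adults and 68.3 and 95.4 in repopulating Ki67-positive cells. The weak Spp1 regions of PND8 thus did not go with low RNA. Lpl, lipoprotein lipase, was higher at all 3 of its tested regions. The Lpl region 32.8 kb away held 427.3 and 427.7 tags against 13.7 and 39.5, and the one 70.7 kb away 653.2 and 612.2 against 233.8 and 257.2. In repopulating Ki67-positive cells the region 70.7 kb away held 140.4 and 135.2 tags, below PND8. RNA of Lpl was 142.1 and 206.5 TPM in PND8 Ki67-positive cells and 18.1 and 17.2 in adults.

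Clec7a, the beta-glucan receptor dectin-1, and Cst7, cystatin F, were not tested at their promoters, since PND8 replicate 1 had no call at either. Clec7a held 385.3 and 494.1 tags in cuprizone and 72.9 in PND8 replicate 2; Cst7 held 217.9 and 422.9 against 23.3. At both, the cuprizone libraries lay above the single PND8 call. The repopulating Ki67-positive libraries held 255.7 and 290.8 tags at Clec7a, and 33.5 and 24.2 at Cst7. Apoe, the lipid carrier of the brain, held 562.6 and 671.3 tags against 378.8 and 476.0; its groups did not overlap, and the difference missed the threshold (log2 difference 0.36 ± 0.19, adjusted p = 0.151, limma), though it was called on tags per called kb (0.51). The adult libraries held 25.8 and 70.4 tags there and the repopulating ones 79.1 and 35.3, below every library of both groups. In Ki67-negative cells the Apoe promoter was called lower in cuprizone (log2 difference -0.55, adjusted p = 0.0382, limma). Its tags there were 352.3 and 607.1 after cuprizone and 545.4 and 532.7 in PND8, so the groups overlapped. The interaction with Ki67 status, described below, did not pass (0.92, adjusted p = 0.322, limma). Trem2, the lipid receptor, and its adaptor Tyrobp, both singled out after their values were seen, had promoter differences of 0.15 and 0.01 that were not called.

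Igf1, an insulin-like growth factor made by microglia of developing white matter, had a called promoter in every cuprizone and PND8 library and in no other. In Ki67-positive cells its promoter held 467.4 and 460.9 tags after cuprizone and 137.2 and 197.0 in PND8, a log2 difference of 1.32 ± 0.20 (adjusted p = 7.2e-06, limma). In Ki67-positive cells the cuprizone libraries lay above both PND8 libraries. In Ki67-negative cells the groups overlapped, at 205.4 and 342.3 tags after cuprizone and 259.7 and 237.7 in PND8. The interaction with Ki67 status did not pass at this promoter (1.56, adjusted p = 0.134, limma). RNA was 25.5 and 28.5 TPM in PND8 Ki67-positive cells, and 0.7 and 0.6 in adults. All 3 tested Igf1 regions were higher, the highest by 3.23.

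**Figure D4:**
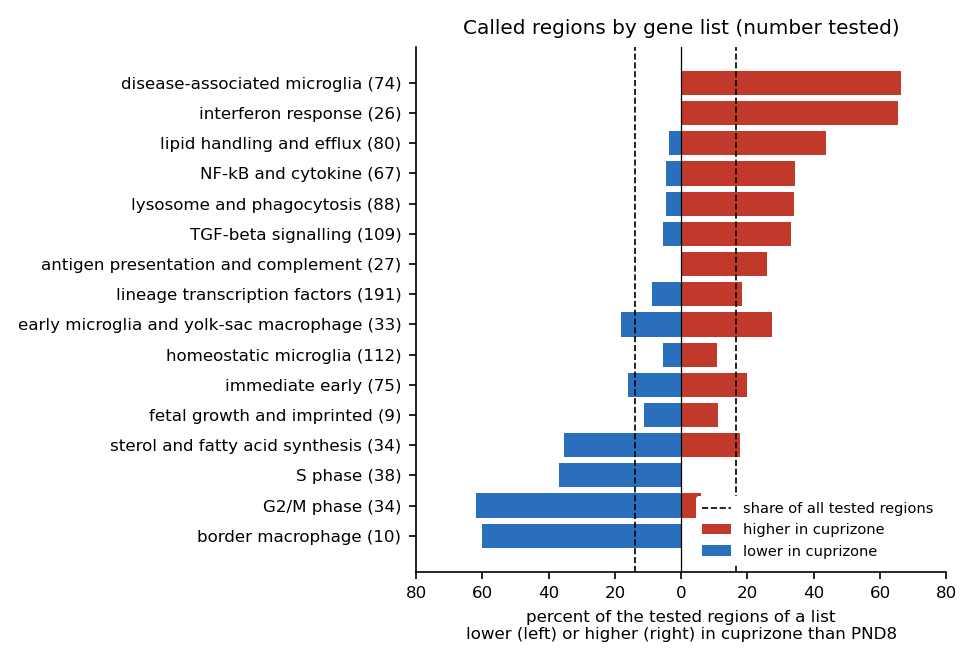
For each gene list, with its number of tested regions, the bars give the percent of regions called higher (right, red) and lower (left, blue) in cuprizone than PND8; dashed lines give the same shares of all 20533 regions, 16.7% and 14.0%. Disease-associated and interferon genes lie at the top, and G2/M, S phase and border macrophage genes at the bottom, though without centring S phase genes had 2 regions higher and 1 lower.

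Interferon-stimulated genes were higher as well: 17 of 26 regions at 14 of 20 genes, and 0 were lower, with a median of 0.83. Of 18 promoters 13 were higher, against 4.84% of all promoters, and of 8 distal regions 4, against 25% of all distal regions. Rtp4, a chaperone of receptors, held 223.8 and 402.4 promoter tags in cuprizone and 26.0 and 45.6 in PND8 (log2 difference 2.92 ± 0.28). Zbp1, a sensor of Z-form nucleic acid, held 239.6 and 372.8 against 27.9 and 52.2 (2.77 ± 0.28). Isg15, whose promoter is printed above, held 502.8 and 602.2 against 144.1 and 202.0 (1.51 ± 0.19). The groups did not overlap at any of these 3 promoters. Isg15 in adults lay between the groups, at 325.9 and 362.9 tags.

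Genes of lipid handling and efflux had 35 of 80 regions higher (43.8%) and 3 lower (3.75%, 1 region without centring), with a median of 0.50. Over all tested regions 16.7% were higher and 14.0% lower. Of the list's 56 distal regions 30 were higher, against 25% of all distal regions, and of its 24 promoters 5, against 4.84%. Apoe, Lpl, Fabp5, Ch25h and Trem2 of this list are also in the disease-associated one. Abca1, which exports cholesterol, was higher at 11 of its 16 regions and lower at 1. Its region 3.01 kb from the start held 600.6 and 567.4 tags against 73.0 and 75.4 (2.79 ± 0.22), while the adult libraries held 130.0 and 440.7. Sterol and fatty acid synthesis went the other way at promoters: 7 of 16 were lower and 0 higher, against 17.5% and 4.84% of all promoters, whose median lay at -0.29. Over all 34 regions 12 were lower (35.3%) and 6 higher (17.6%). Without centring 2 of the 16 promoters were lower, and over the 34 regions the balance turned, to 5 higher and 4 lower. Of the promoters, 4 were lower without cuprizone replicate 1 or without PND8 replicate 1. Fads1, a fatty acid desaturase, held 63.0 and 133.9 promoter tags in cuprizone against 238.6 and 303.3 in PND8 (-1.71 ± 0.24). The higher members lay away from promoters: a region 26.6 kb from Srebf1, a transcription factor of lipid synthesis, held 164.8 and 262.6 against 12.7 and 22.3 (3.38), and one 25.8 kb from Scd2, a stearoyl-CoA desaturase, 306.6 and 479.9 against 84.8 and 117.0 (1.76).

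Over all tested regions 16.7% were higher and 14.0% lower, beside which the lists of this paragraph are set. By place, 25% of all distal regions and 4.84% of all promoters were higher. NF-kB and cytokine genes stood at 34.3% higher and 4.48% lower, and antigen presentation and complement genes at 25.9% and 0%. In the first of these lists 15 of 49 distal regions and 8 of 18 promoters were higher. In the second 4 of 13 and 3 of 14 were higher. Lysosome and phagocytosis genes had 30 of 88 regions higher (34.1%) and 4 lower (4.55%), with a median of 0.34. The lower regions numbered 2 without PND8 replicate 1 and 1 without centring, and the median was 0.21 without cuprizone replicate 1, 0.22 on tags per called kb and 0.51 without centring. Of the 61 distal regions of the lysosome list 25 were higher, and of its 27 promoters 5. This list shares Axl, Itgax, Trem2, Tyrobp, Cd68, Ctsb, Ctsd, Ctsl and Gpnmb with the disease-associated one. Ctsd, a lysosomal protease gene, was higher at all 5 of its tested regions. The promoter of Mitf, a regulator of lysosomal genes, held 384.0 and 473.5 tags against 90.2 and 145.3 (1.72 ± 0.21). A region 18.8 kb from Mertk, another receptor for dying cells, held 295.4 and 276.9 against 62.2 and 81.0 (1.83). NF-kB and cytokine genes had 23 of 67 higher and 3 lower (0 lower without centring or in the fit of 12 libraries with the library code, 1 without PND8 replicate 2), and 13 higher without cuprizone replicate 1, without PND8 replicate 2 or on tags per called kb. Their examples were led by a region 5.63 kb from the chemokine gene Cxcl16 (440.5 and 436.6 against 76.5 and 118.5). The promoters of the chemokines Ccl4 and Ccl3 were higher by 1.60 and 1.40. Antigen presentation and complement genes had 7 of 27 higher and 0 lower, and 3 higher without PND8 replicate 1 or on tags per called kb. Itgam, CD11b, was higher at its promoter (722.1 and 657.1 against 196.5 and 476.9, log2 difference 1.00). That call was lost without PND8 replicate 1 (0.54, adjusted p = 0.107, limma), on tags per called kb (0.27, adjusted p = 0.265) and with regions not called set to 0 tags (adjusted p = 0.141).

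TGF-beta signalling had 36 of 109 regions higher and 6 lower, the latter 2 without centring, 3 without PND8 replicate 1 and 10 without cuprizone replicate 2 or after quantile normalisation, and 17 more called in cuprizone but in neither PND8 library against 2 the reverse. The 17 and 2 are of 171 regions of the list in the union, beside 4.36% and 4.30% of the whole union. All 36 higher regions were among the 91 distal ones of the list, and 25% of all distal regions were higher. Over both places 33.0% of the list were higher and 5.50% lower, against 16.7% and 14.0% of all regions. Of 18 promoters 0 were higher and 2 lower, near the shares of all promoters, 4.84% and 17.5%. Pmepa1, a target and inhibitor of TGF-beta signalling, had a region 11.5 kb from its start with 364.3 and 451.4 tags against 35.3 and 43.5 (3.17 ± 0.25). Smad7, an inhibitory SMAD, was higher at 10 of its 19 regions. Lineage transcription factors had 35 of 191 regions higher (18.3%) and 17 lower (8.90%), against 16.7% and 14.0% of all regions, the lower ones numbering 9 without centring and 11 without PND8 replicate 2. Of the 168 distal regions of this list 34 were higher and 15 lower. Both are smaller shares than the 25% and 11.6% of all distal regions. Maf, a factor of microglia and border macrophages, was lower at 7 of 11 regions, 4 of them without centring, and higher at none. One region 123 kb from its start held 182.5 and 209.9 tags against 433.2 and 554.4 (-1.49 ± 0.19).

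Homeostatic microglia genes had a smaller share called than all regions, with 12 of 112 higher (10.7%) and 6 lower (5.36%). Over all tested regions 16.7% were higher and 14.0% lower. Of the list's 88 distal regions 11 were higher and 5 lower, against 25% and 11.6% of all distal regions. The list's median was 0.13, which was -0.03 without cuprizone replicate 1 and 0.30 without centring. The higher regions numbered 6 without PND8 replicate 1, and the lower ones 1 without centring and 2 on tags per called kb. The promoter of P2ry12, the purinergic receptor of resting microglia, held 2000.2 and 2221.1 tags in cuprizone and 1969.4 and 1901.8 in PND8, a log2 difference of -0.05 with a 95% interval of -0.67 to 0.57, and of 0.12 without centring. The cuprizone libraries lay just above both PND8 libraries before centring. Tmem119 held 806.8 and 989.3 against 743.4 and 755.5, with a difference of 0.08 (-0.36 to 0.52). Csf1r held 1505.9 and 1620.0 against 1434.8 and 1724.6, and its groups overlapped. Sall1, the factor of microglial identity, held 1363.4 and 1373.2 against 1675.9 and 1501.3; the difference of -0.38 was not called (adjusted p = 0.290, limma), and it was called after quantile normalisation (-0.44) and with the replicate block. Members that did differ were Selplg, the P-selectin ligand, higher at its promoter (875.7 and 1047.8 against 420.9 and 504.8, 0.88 ± 0.20; not called in the fit of all 12 libraries, adjusted p = 0.0881, limma), and Siglech, a sialic acid receptor, lower 21.8 kb from its start (160.8 and 209.9 against 410.2 and 508.9, -1.48 ± 0.19). Immediate early genes had 15 of 75 regions higher (20%) and 12 lower (16%), near the shares of all regions, 16.7% and 14.0%. Without centring 4 were lower, and on tags per called kb 9 were higher and 6 lower. Of the 59 distal immediate early regions 12 were higher and 8 lower, against 25% and 11.6% of all distal regions. Of the 2 lists that follow, early microglia genes stood at 27.3% higher and 18.2% lower and the fetal list at 11.1% each way. Early microglia genes had 9 of 33 higher and 6 lower (1 lower without centring, 2 on tags per called kb, and 5 higher without PND8 replicate 1), and the fetal list 1 of 9 each way.

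Cell cycle genes were lower at their promoters in cuprizone, although both groups were sorted as Ki67-positive. Of 23 G2/M promoters 18 were lower and 0 higher, with a median of -0.99; of 25 S phase promoters 13 were lower and 0 higher, with a median of -0.64. Over all promoters 17.5% were lower and 4.84% higher, with a median of -0.29. Without centring 9 of the G2/M and 1 of the S phase promoters were lower, and over all 38 S phase regions the 14 lower and 0 higher became 1 lower and 2 higher. Leaving out PND8 replicate 1 left 15 G2/M and 5 S phase promoters. The S phase count was 7 without PND8 replicate 2, and 5 in the fit of 12 libraries with the header's library code as a term. Ccnb2 held 32.8 and 57.5 promoter tags in cuprizone and 196.0 and 186.8 in PND8, a log2 difference of -2.28 ± 0.29 (adjusted p = 5.4e-07, limma). Neither cuprizone Ki67-negative library called it, and the PND8 Ki67-negative libraries held 23.5 and 24.4 tags. Ube2c held 34.1 and 73.3 against 181.8 and 202.5 (-2.09 ± 0.29). Top2a, topoisomerase II alpha, held 44.6 and 109.2 against 159.3 and 150.9 (-1.31 ± 0.30), and Mki67 differed by -0.90 ± 0.21. The calls of Mki67 and Top2a were lost without centring (adjusted p = 0.0900 and 0.0685, limma) and with regions not called set to 0 tags (0.0718 and 0.0938). Mcm2, a subunit of the replicative helicase, held 57.8 and 104.9 against 178.4 and 206.1 (-1.46 ± 0.26). At every one of these 5 promoters cuprizone replicate 1 was the lowest of the 4 Ki67-positive libraries. A distal region 91.1 kb from Ccnb2 was higher (1.95). Shares of cells in each phase were not measured here.

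Border macrophage markers were lower at 6 of 10 tested regions (60%) and higher at 0, with 3 lower without centring. Over all tested regions 14.0% were lower and 16.7% higher. Of the 23 border macrophage regions in the union, 6 were called in both PND8 libraries and neither cuprizone library, and 0 the reverse. Over the whole union these shares were 4.30% and 4.36%. Summed over the border macrophage markers, promoter tags were 259.3 and 377.0 in cuprizone and 669.8 and 853.6 in PND8. The promoters of Cd163, Lyve1, Ms4a7 and Cd209f were called in no library. Besides Mrc1, a region 1.24 kb from Cbr2, a carbonyl reductase, held 44.6 and 44.8 against 134.8 and 180.8 (-1.95 ± 0.30), and the Pf4 promoter 14.4 and 12.1 against 37.2 and 67.3 (-2.02 ± 0.50). The Pf4 call was lost when tags were divided by the called length (log2 difference -0.46, adjusted p = 0.235, limma), without PND8 replicate 2 (-1.78, adjusted p = 0.0669), in the fit of 12 libraries with the library code (-1.53, adjusted p = 0.0511) and with regions not called set to 0 tags (adjusted p = 0.105). The part of such cells in the Mrc1 difference was not tested. Markers of endothelium had 9 of 13 regions higher (69.2%) and 2 lower (15.4%), the higher ones including all 4 tested regions of Flt1 and all 3 of Slc2a1. The 2 lower ones, 0 without centring, lay at Pecam1 and Cdh5, which encode endothelial adhesion molecules. The Pecam1 promoter was not called in cuprizone replicate 1 and held 25.3 tags in replicate 2, against 61.7 and 140.8 in PND8. Astrocyte markers had 4 of 11 higher, all of Slc1a3, whose RNA was at 83.9 and 87.1 TPM in adult microglia; Gfap and Aqp4 promoters, and those of Cldn5 and Cdh5, were called in no library. Oligodendrocyte lineage promoters summed to 377.5 and 912.3 tags in cuprizone and 403.8 and 562.0 in PND8; 487.8 of those in cuprizone replicate 2 lay at Cspg4, which held 35.4 in replicate 1 and was not called in PND8.

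Some regions were called on one side only: 1553 in both cuprizone libraries and neither PND8 library (4.36% of the union), and 1532 the reverse (4.30%). Absence means that a region did not pass the authors' caller, not that it held no tags. Both sets were distal for the most part, with promoters at 4.06% of the cuprizone set and 7.83% of the PND8 set, against 41.3% of regions called in all 4. They were also weaker, with median tags of 36.8 and 55.4 in the cuprizone libraries and 20.6 and 31.9 in PND8, against 138.2 to 200.9 for regions called in all 4. Counting only regions with at least 20 tags in each calling library left 1120 and 729.

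Ranked by the lower of their 2 libraries, the first region called in cuprizone alone lay 32.0 kb from Ccr1, a chemokine receptor gene, at 508.1 and 546.8 tags. Adult microglia had it too, at 166.5 and 642.2 tags, and repopulating cells at 528.3 and 611.7. In PND8 it was called in 1 Ki67-negative library, at 89.7 tags. The promoter of Bhlhe40 (chr6:108658099-108661886), a transcriptional repressor, had a higher mean, with 458.2 and 719.3 tags in cuprizone. It was called in repopulating cells (337.2 and 337.7) and in neither adult library. The other members by rank lay away from promoters, near Pip5k1c, Chd7, Plekha1, Etl4, Pitpnb, Igfbp5, Ptpre, Nrp1, Xylt1 and Capzb, with 323.6 to 447.7 tags in their lower library.

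The first PND8 region by the same rank was the promoter of Igf2bp3 (chr6:49213271-49215626), a fetal RNA-binding protein, at 321.9 and 264.3 tags. PND8 Ki67-negative cells had it at 233.2 and 153.1, and no cuprizone, adult or repopulating library called it. A second Igf2bp3 region, 3.07 kb from the start and called in all 4 libraries, held 61.7 and 148.7 tags in cuprizone against 468.5 and 606.6 in PND8 (-2.63 ± 0.23). RNA of Igf2bp3 was 45.0 and 55.3 TPM in PND8 Ki67-positive cells and 0.9 and 1.0 in adults. The promoter of Emilin1, an extracellular matrix glycoprotein, held 175.9 and 246.1 tags and was likewise called only in the PND8 libraries among the 12. Regions near Gas7 and Sept9, genes of cytoskeletal proteins, held 242.1 and 295.2 and 147.5 and 221.3 tags. Others lay near Nt5m, Sh3bp2, Akap13, Tmem236, Lrfn1, Sema4b and Hibadh and at the promoter of Afmid.

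Both sets were also looked up in the 8 libraries that did not define them. Of the cuprizone set, 53.1% and 82.9% were called in the cuprizone Ki67-negative libraries, 17.7% and 22.4% in PND8 Ki67-negative, 12.3% and 26.1% in adult and 54.3% and 49.4% in repopulating libraries. Of the PND8 set, 63.3% and 72.4% were called in PND8 Ki67-negative, 16.4% and 37.0% in cuprizone Ki67-negative, 10.9% and 30.5% in adult and 41.4% and 26.3% in repopulating libraries. Of the whole union, 65.1% and 80.8% were called in cuprizone Ki67-negative and 72.6% and 76.7% in PND8 Ki67-negative libraries. The union's shares were 52.2% and 66.5% in adult and 77.8% and 70.2% in repopulating libraries. In Ki67-negative libraries of its own setting, the cuprizone set lay below the union in replicate 1 and just above in replicate 2. The PND8 set lay below the union in both. Adult replicate 1 had the fewest regions of the 12 libraries, 19572. Few members were called in adults, on either side. ATAC-seq peaks, which mark open chromatin, overlapped 49.8% of the cuprizone set in PND8 Ki67-positive cells, 54.3% in adults and 73.6% in repopulating cells. For the PND8 set the shares were 78.7%, 73.2% and 80.7%, and for the whole union 82.3%, 83.4% and 87.5%. Each ATAC-seq list is 1 library, titled Ki67rfp for the cycling cells, from mice of 8, 80 (adult) and 75 days (repopulating), and none is from cuprizone.

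Rpb2, a subunit of RNA polymerase II, was mapped in PND8 Ki67-positive cells in 1 library. Its peaks overlapped 82.5% of the distal regions called lower in cuprizone, 71.1% of those not called and 58.7% of those called higher. The median tags of those classes in PND8 replicate 1 ran in the same order, at 144.1, 103.9 and 76.9.

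Several genes had many regions on one side. Lhfpl2, a gene of a tetraspan membrane protein, was higher at 16 of 18 regions, with a median of 1.19, Tns3, a focal adhesion protein, at 13 of 17 and Cadm1, an adhesion molecule, at 10 of 14. Klhl25, an adaptor of ubiquitin ligases, was higher at 10 of 16. None of these 4 had a lower region. On the PND8 side Sept9 was lower at 6 of 8 regions and Fchsd2, a regulator of endocytosis, at 6 of 9. Over all tested regions 16.7% were higher and 14.0% lower, and over all distal ones 25% and 11.6%. These counts were ranked after their values were seen, so that the first genes lean to one side was set in advance. Regions of 1 gene lie near each other and are not separate evidence.

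The same contrast was made in Ki67-negative cells, over 18226 regions called in all 8 libraries. There 2467 regions were higher (13.5%) and 1547 lower (8.49%). Of the 3064 regions in this set that were higher in Ki67-positive cells, 2938 lay above 0 in Ki67-negative cells and 1948 were called higher, 4 lower. Of the 2475 lower ones, 2350 lay below 0 and 1008 were called lower, 0 higher. Disease-associated genes had 37 of 69 regions higher and 1 lower, the Apoe promoter, in Ki67-negative cells, with a median of 0.73. Interferon genes had 10 of 21 higher and 0 lower.

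The difference between the contrasts, tested as an interaction with limma, passed the threshold at 4 regions (0.0219%), with 1333 at an unadjusted p under 0.05. All 4 were more strongly higher in Ki67-positive cells. The promoter of Gramd1b (chr9:40319791-40322346), a carrier of cholesterol between membranes, held 348.6 and 515.7 tags in cuprizone and 86.7 and 106.8 in PND8 Ki67-positive cells. In Ki67-negative cells it held 247.9 and 331.5 against 300.2 and 233.6, and these groups overlapped. No region passed with the replicate block, without centring, or without any one of the 4 replicate 1 libraries; leaving out single replicate 2 libraries gave 1 to 57 regions.

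**Figure D5:**
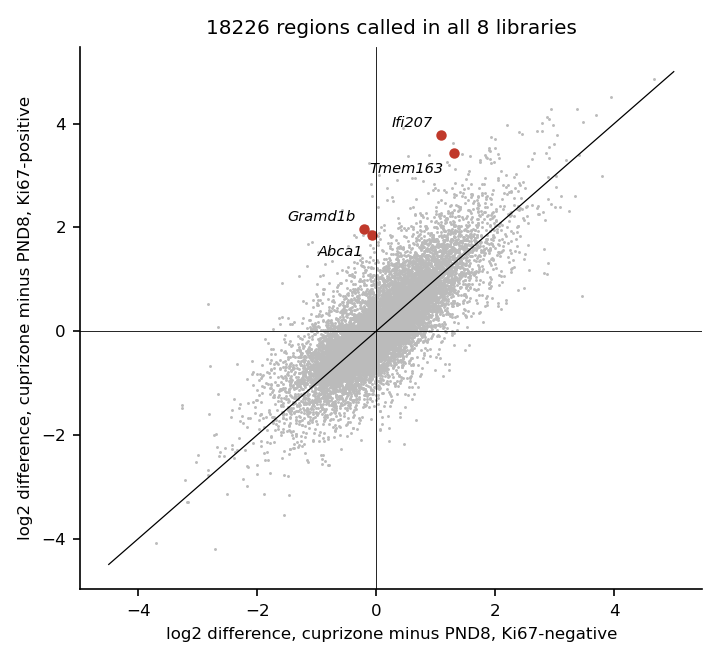
Each point is 1 of 18226 regions called in all 8 libraries: log2 difference, cuprizone minus PND8, in Ki67-negative (x) and Ki67-positive (y) cells, with the line of equal differences. The 4 red points passed the interaction test and lie above the line.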

How the data were processed

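H3K27ac chromatin immunoprecipitation sequencing was compared in 4 libraries, 2 of cuprizone and 2 of PND8 Ki67-positive microglia; per the labels' protocols, brains were processed with butyrate and flavopiridol. The submitters' processing notes list Bowtie2 2.3.4.1, HOMER 4.11, STAR 2.7.0f and DESeq2, and the builds mm10 and GRCm38. Per the file headers, HOMER called regions in each library against its input, at 4-fold over input, a false discovery rate of 0.001, a 500 bp window, a 10000 bp local filter and 1 tag per bp. The deposited signal is the tag count in a region per 10000000 tags; the deposited HOMER score served only for a stricter threshold. A region next to others can miss a call through the local filter, so a missing call is not 0 tags. RNA levels are the deposited table's values in TPM, set beside regions without a test; those of PND8 and repopulation carry Ki67rfp in their titles. Peaks of ATAC-seq, Rpb2 and H3K4me3 were used by position.

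Regions sharing at least 1 bp were merged, tags summed, and each merged region given to the nearest of the starts of 20999 genes. Regions called in all 4 libraries were fitted with limma 3.58.1 in R 4.3.3 (trended empirical Bayes) on log2(tags + 1), pseudocount 1, each library centred on its median; the interaction used 8 libraries. Fold changes are on this scale, and the pseudocount makes those of weak regions smaller. Tags were counted only over the length that each library called, so a difference in tags also holds a difference in called length. The Klhl25 region, for one, was called over 3518 and 4151 bp in cuprizone and 501 and 1587 bp in PND8. Tables were joined with Python 3.11.15, pandas 2.3.3, numpy 2.4.6 and scipy 1.17.1, and the fit was tested on simulated data. Intervals are 95%. Totals of 15233543 to 20407110 tags set the precision, and per-region tags are limited by that depth.

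Members, gene lists and tests were chosen with earlier results of these data known. Named regions are the strongest of each of a fixed panel, the 12 largest differences per direction with groups apart, the 12 strongest called on one side only, and up to 4 regions per list with the smallest adjusted p, plus the 4 of the interaction; others are said to be singled out. Some regions that this rule names are not reported here. Alternatives were other scalings, a pseudocount of 10, a filter of 20 tags, stricter scores and overlaps, other library sets, the replicate block and each library left out. The headers carry a library code of unstated meaning: replicate 1 of both groups shares one and each replicate 2 has its own. Same-numbered libraries were not paired by the labels.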

Additional observations from a re-analysis of the deposited data

Results flagged for a closer look

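The cuprizone minus PND8 difference itself differed between Ki67-positive and Ki67-negative cells at 4 regions, by limma's interaction test over 18226 regions; all 4 lie on the Ki67-positive side. Gramd1b, whose promoter is described above, had an interaction of 2.18 on the log2 scale (adjusted p = 0.0257). The promoter of Ifi207, an interferon-inducible gene, held 337.4 and 330.6 tags in cuprizone and 14.7 and 29.3 in PND8 Ki67-positive cells, against 198.8 and 296.0 and 88.9 and 91.1 in Ki67-negative cells, an interaction of 2.68 (adjusted p = 0.0338). A region 79.7 kb from Tmem163, a zinc transporter gene, held 514.7 and 575.9 against 39.2 and 49.1, and 240.4 and 369.9 against 90.8 and 99.8 in Ki67-negative cells, an interaction of 2.13 (adjusted p = 0.0338). A region 67.2 kb from Abca1 held 251.4 and 334.9 against 63.2 and 80.5, and 150.7 and 197.3 against 144.5 and 145.3 in Ki67-negative cells, an interaction of 1.92 (adjusted p = 0.0338). In Ki67-negative cells the groups did not overlap at any of these 3 before centring. No region passed without centring or without any one of the replicate 1 libraries, as given above.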

How the results depend on the processing

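Of 1939 values of the 119 tested named regions under other settings, 1889 kept their side of the threshold, 41 lost the call, 9 gained it and 0 reversed. Apart from the panel, these regions were chosen for large differences or small p in the same data. Keeping their side was therefore partly set in advance, and the counts over all regions that follow moved more. The 3421 higher regions became 2124 with regions not called set to 0 tags and 2099 with a fold of at least 2, and ranged from 2530 to 3530 with 1 library left out. The 2875 lower regions became 576 without centring, 853 with regions not called set to 0, 1491 with all 12 libraries in 1 fit (chosen after seeing the data), 1222 with a fold of at least 2, and 1268 to 3587 with 1 library left out, lowest without PND8 replicate 1. A library left alone in its group is assumed to vary like the others. Of the regions called on one side, the 1532 of PND8 became 729 at 20 tags; with 1 library left out the rule itself loosens, giving 1822 to 4058 for cuprizone (4058 without cuprizone replicate 1) and 1764 to 4218 for PND8 (4218 without cuprizone replicate 2, 3953 without PND8 replicate 1). The 4 interaction regions became 0 without centring, and 0 to 57 with 1 library left out. In Ki67-negative cells the 2467 higher regions became 4049 without centring and 1263 to 2464 with 1 library left out, lowest without cuprizone Ki67-negative replicate 1 (1325 without PND8 Ki67-negative replicate 1). The 1547 lower ones became 255, and 492 to 1817, with 492, 615 and 833 without PND8 Ki67-negative replicate 1, cuprizone Ki67-negative replicate 1 and PND8 Ki67-negative replicate 2. The cause of these moves was not tested.

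With the replicate block, 3666 regions were higher and 3103 lower, and 0 passed the interaction; in Ki67-negative cells 2978 were higher and 1879 lower. Deviations of same-numbered libraries correlated at 0.0552, below 0.1, and the labels pair nothing, so the block was not taken as a pairing; both replicate 1 libraries share a header code of unstated meaning. The library code could not be fitted in 4 libraries alone; with all 12 and the code as a term, 3336 were higher and 2214 lower. Tags and the calls they pass limit what weak regions can show.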
